A study of Mus musculus with 14 samples.

Results

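Hif1a, the oxygen-regulated subunit of the transcription factor HIF-1, and 9 of its known target genes were followed through activated mouse B cells of 3 genotypes. The 10 genes were chosen by symbol from the 22232 genes of the deposited table, with their RPKM (reads per kilobase of gene, scaled to the depth of the library) in all 14 libraries and in every pair of genotypes already known. Their differences are therefore given as a description with no test. All 10 symbols were found, and all 10 were among the 9627 genes that reached at least 1 RPKM in at least 4 libraries. Egln3 did so in 9 libraries, those of the WT and PU1_KI genotypes only, and the other 9 genes in all 14.

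Splenic B cells of mice were isolated by negative selection, then kept in culture for 96 h with 5 ug/ml LPS and 10 ng/ml IL-4. This stimulus was common to every group, so no group shows resting cells, and the labels name no low-oxygen condition. WT was wild type (n = 4). PU1_KI had the genotype PU.1[155-/155-], a knock-in that mutates the miR-155 target site of the PU.1 gene (n = 5), and miR155_KO had the genotype miR-155[-/-] (n = 5). Replicates were biological per the design text, while no source used here gives the age, sex or strain of the mice or says whether animals were pooled.

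HIF-1 joins an unstable alpha subunit to the stable partner Arnt. When oxygen is plentiful, prolyl hydroxylases of the Egln family mark the alpha subunit, and the Vhl ubiquitin ligase sends it to the proteasome, so HIF activity is set mainly at the level of protein, which was not measured here. Stabilised HIF binds hypoxia response elements with the core ACGTG or GCGTG and raises genes for glucose uptake, glycolysis, lactate export, mitochondrial turnover and blood vessel growth, and in B cells activation through LPS is itself known to engage this pathway.

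The sequences of 4 promoters are shown because these genes span the patterns described below: Ankrd37, Slc16a3 and Bnip3 had their lowest values in miR155_KO, and Vegfa had its highest there. Each run is the 250 bases upstream of the most upstream RefSeq transcript start (GRCm38.p6), read 5′ to 3′ on the strand of the gene, with both cores in capitals on either strand (on the opposite strand they read CACGT and CACGC). The windows are chr8:45999851-46000100 on the minus strand for Ankrd37, chr11:120948817-120949066 on the plus strand for Slc16a3, chr7:138909507-138909756 on the minus strand for Bnip3 and chr17:46032378-46032627 on the minus strand for Vegfa.
Ankrd37: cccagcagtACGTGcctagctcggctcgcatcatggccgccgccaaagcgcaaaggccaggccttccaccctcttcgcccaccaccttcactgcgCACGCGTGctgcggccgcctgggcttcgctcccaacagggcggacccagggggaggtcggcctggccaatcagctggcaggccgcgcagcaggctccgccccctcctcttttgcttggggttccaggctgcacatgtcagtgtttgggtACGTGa
Slc16a3: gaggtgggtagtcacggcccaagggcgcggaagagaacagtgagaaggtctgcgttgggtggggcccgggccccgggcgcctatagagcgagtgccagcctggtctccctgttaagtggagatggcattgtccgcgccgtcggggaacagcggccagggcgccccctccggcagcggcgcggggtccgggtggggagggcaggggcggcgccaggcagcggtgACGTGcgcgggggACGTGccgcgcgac
Bnip3: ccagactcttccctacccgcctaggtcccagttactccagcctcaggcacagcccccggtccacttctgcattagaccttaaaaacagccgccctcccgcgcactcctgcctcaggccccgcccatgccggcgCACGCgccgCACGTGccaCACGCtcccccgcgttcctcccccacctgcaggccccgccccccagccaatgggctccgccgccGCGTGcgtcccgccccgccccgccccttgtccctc
Vegfa: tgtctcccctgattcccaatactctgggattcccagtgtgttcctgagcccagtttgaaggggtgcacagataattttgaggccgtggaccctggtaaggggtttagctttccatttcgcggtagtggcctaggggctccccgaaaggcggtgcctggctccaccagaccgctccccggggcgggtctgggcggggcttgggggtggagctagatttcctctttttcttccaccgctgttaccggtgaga

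The Ankrd37 window held ACGTG at 241 and 6 bases upstream of the start, and GCGTG at 155 bases on the opposite strand and 152 bases on the strand of the gene. In the Slc16a3 window ACGTG occurred at 27 and 14 bases upstream. The Bnip3 window held 5 matches, of which those at 108 and 107 bases upstream are 1 palindrome read on both strands. In the Vegfa window neither core occurred in these letters. A window at its other RefSeq start, chr17:46025164-46025413 on the minus strand, held 2, but it lies downstream of the most upstream start. Sequence outside these windows, such as that further upstream of Vegfa, was not searched. Over the 10 genes, all matched to RefSeq (Ero1l under the symbol Ero1a), 9 windows at the most upstream start held at least 1 core and 8 held ACGTG. Of all 32851 windows of the same length in the RefSeq promoter table, 38.6% held either core and 16.6% held ACGTG. Those windows cover every listed start of a gene and were not limited to tested genes, so the sets are unlike. The matches are a description of letters, and no binding was measured.

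Because 1 genotype lacks miR-155, the microRNA is shown with its seed (bases 2 to 8) in capitals, together with the 3′ UTR stretches of Hif1a and Pdk1 that hold the complement of the seed, AGCATTA, in capitals. Mature miR-155-5p lies at chr16:84714143-84714165 on the plus strand (RefSeq, GRCm38.p6). The Hif1a stretch is chr12:73946728-73946749 and the Pdk1 stretch chr2:71901098-71901119, both on the plus strand (GENCODE M21, GRCm38).
miR-155-5p: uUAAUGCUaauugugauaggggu
Hif1a: gtaattttagaAGCATTAtttt
Pdk1: gtgcaagctaaAGCATTAgcgg

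In the longest annotated 3′ UTR of each gene, the Hif1a match began at base 1039 of 1830 and the Pdk1 match at base 988 of 3737. The other 8 genes held none, including Vegfa with a 3′ UTR of 1868 bases. Among 9417 tested genes with an annotated 3′ UTR, 9.19% held AGCATTA. The median length of these was 1152 bases, and the share was not matched for length. The match is followed by T in Hif1a and by G in Pdk1, so neither has the A that completes the longest class of seed site. In miR155_KO, Hif1a was higher than in WT and Pdk1 was lower, as their values below show.

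Depth, recovered from the steps between low RPKM values, was 31.5 to 52.4 M reads per library (M for 1e6) and overlapped among the genotypes. Sfpi1, the table's symbol for PU.1, stood at 9.73 to 13.2 RPKM in WT, 21.1 to 26.0 in PU1_KI and 15.5 to 18.3 in miR155_KO, and miR-155 itself was not analysed here. All 6 B cell markers passed the level of 1 RPKM, with summed values of 1511.4 to 1743.8 RPKM in WT, 1551.3 to 1806.1 in PU1_KI and 1364.5 to 1479.9 in miR155_KO. Of the markers of other cell types, none of 6 for T cells, 10 for macrophages, 5 for neutrophils, 4 for NK cells, 5 for erythroid cells and 4 for stroma passed it. Among 5 endothelial markers Pecam1 passed, a gene that leukocytes also express, and the list summed to 6.51 to 7.41 RPKM in WT, 6.8 to 7.6 in PU1_KI and 3.09 to 3.89 in miR155_KO. The T cell sum was 0.103 to 0.217 RPKM in WT, 0.13 to 0.323 in PU1_KI and 0.701 to 0.952 in miR155_KO, and the macrophage sum 0.4 to 0.642, 0.282 to 0.52 and 0.864 to 1.15, with C1qa at 0. Stroma summed to 0.0542 to 0.129, 0.0928 to 0.174 and 0.211 to 0.289 RPKM, with Col3a1 and Dcn at 0, and NK cells to 0.421 to 0.62, 0.211 to 0.322 and 0.188 to 0.287. The part of these differences in the values below was not tested. In bulk RNA, fewer cells of a type and less RNA per cell cannot be told apart.

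Across the genotypes the 10 genes fell into 3 patterns. Hif1a was lowest in PU1_KI and highest in miR155_KO. Vegfa was lowest in WT, intermediate in PU1_KI and highest in miR155_KO. The other 8 genes had their highest mean in PU1_KI and their lowest in miR155_KO. In PU1_KI against WT, 7 of the 10 genes had all values above those of WT, 1 had all values below and 2 overlapped, where over all tested genes 18.4% lay wholly above and 3.76% wholly below. In miR155_KO against WT, 2 lay above and 8 below with no overlap, where the shares over all tested genes were 23.5% and 24.9%. In miR155_KO against PU1_KI the counts were again 2 above and 8 below, with 13.4% and 29.7% over all tested genes. These counts follow from how the genes were picked, and the comparisons of both mutants share the same WT libraries.

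**Figure D1:**
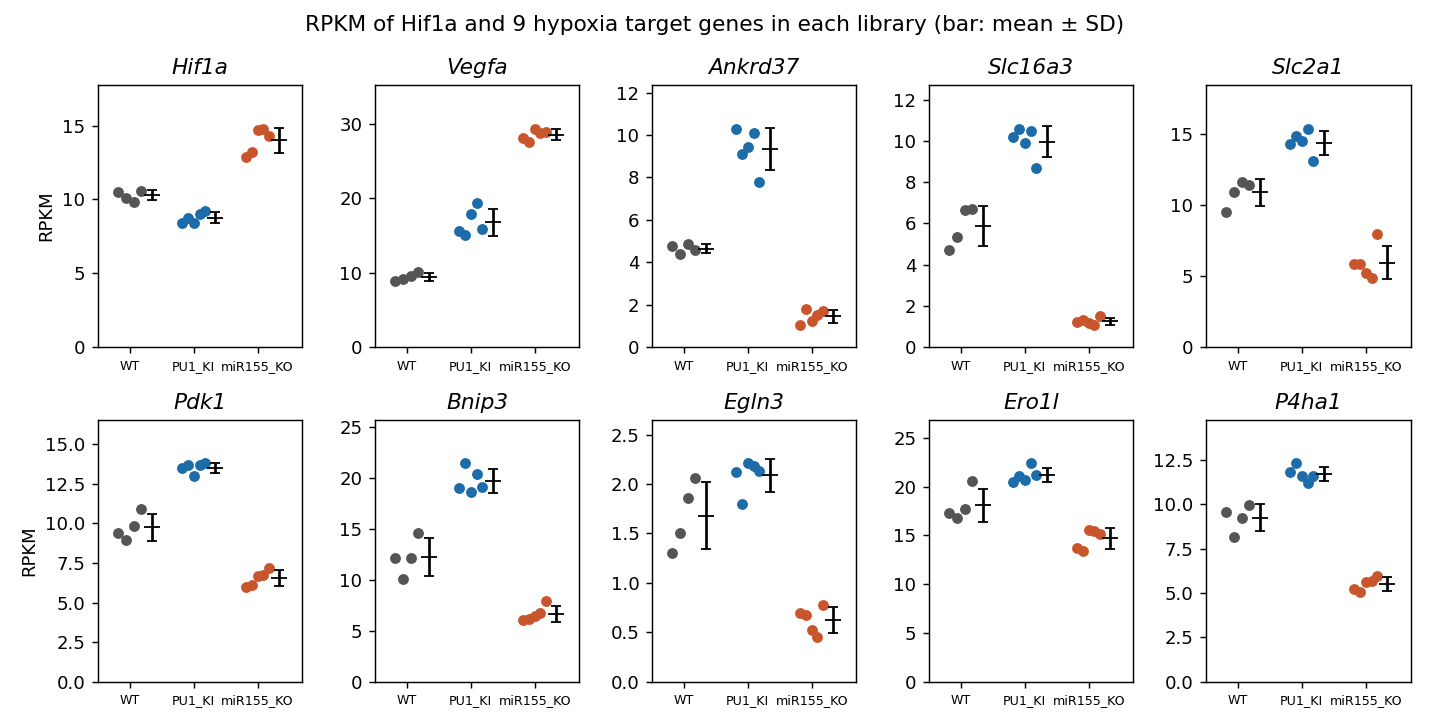
RPKM on the vertical axis, from 0, of each of the 10 genes in every library, with points for single libraries grouped by genotype (WT grey, PU1_KI blue, miR155_KO orange) and a bar for the mean ± SD. Hif1a and Vegfa have their highest points in miR155_KO, whereas the other 8 genes have their lowest points there and their highest mean in PU1_KI.

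Hif1a (ENSMUSG00000021109, NCBIM37 chromosome 12, 75002362 to 75048517, plus strand) encodes the subunit that senses oxygen through its stability. Its values in WT were 10.5, 10.1, 9.85 and 10.6 RPKM. PU1_KI libraries had 8.42, 8.73, 8.42, 8.98 and 9.24 RPKM, and miR155_KO libraries 12.9, 13.2, 14.7, 14.8 and 14.3 RPKM. Every PU1_KI library was below every WT library and every miR155_KO library above, so the 3 genotypes did not overlap. Mean RPKM was 10.3 ± 0.371 (SD, n = 4) in WT, 8.76 ± 0.357 (SD, n = 5) in PU1_KI and 13.99 ± 0.872 (SD, n = 5) in miR155_KO. On the scale of log2(RPKM + 0.5), used for all differences here, PU1_KI differed from WT by -0.22 ± 0.06 (SE) and miR155_KO by 0.43 ± 0.06, and miR155_KO exceeded PU1_KI by 0.65 ± 0.05. This scale understates the differences of low genes. Hif1a was thus the only one of the 10 genes whose level was below WT in PU1_KI.

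Vegfa (ENSMUSG00000023951, NCBIM37 chromosome 17, 46153942 to 46169326, minus strand) encodes the secreted factor that drives blood vessel growth. WT libraries held 8.84, 9.17, 9.61 and 10.1 RPKM. The PU1_KI values were 15.6, 15.1, 17.9, 19.4 and 15.9 RPKM, and the miR155_KO values 28.1, 27.6, 29.4, 28.8 and 29.0 RPKM. The genotypes formed 3 separate steps, and the miR155_KO libraries were the tightest relative to their mean. Means were 9.43 ± 0.556 (SD, n = 4), 16.8 ± 1.83 (SD, n = 5) and 28.6 ± 0.72 (SD, n = 5) RPKM in that order, which is 1.78 times WT in PU1_KI and 3.03 times WT in miR155_KO. The log2 differences from WT were 0.79 ± 0.07 and 1.55 ± 0.07, and miR155_KO exceeded PU1_KI by 0.76 ± 0.06. Vegfa was the only one of the 10 genes with a higher level than WT in both mutants.

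Slc16a3 (ENSMUSG00000025161, NCBIM37 chromosome 11, 120809794 to 120822182, plus strand) encodes the transporter that exports lactate from glycolytic cells. Its WT values were 4.73, 5.36, 6.65 and 6.69 RPKM. In PU1_KI they were 10.2, 10.6, 9.88, 10.5 and 8.7 RPKM, and in miR155_KO 1.21, 1.3, 1.15, 1.06 and 1.49 RPKM. No genotypes overlapped, and the lowest PU1_KI library was above the highest of WT. Mean RPKM was 5.86 ± 0.973 (SD, n = 4) in WT, 9.97 ± 0.754 (SD, n = 5) in PU1_KI and 1.24 ± 0.166 (SD, n = 5) in miR155_KO, so the WT mean was 4.72 times that of miR155_KO and the PU1_KI mean 8.03 times. The log2 differences from WT were 0.73 ± 0.09 in PU1_KI and -1.86 ± 0.09 in miR155_KO. The difference of -2.59 ± 0.09 between the mutants was the widest for any of the 10 genes.

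Slc2a1 (ENSMUSG00000028645, NCBIM37 chromosome 4, 118781316 to 118809935, plus strand) encodes the main glucose importer of many dividing cells. WT values were 9.54, 10.9, 11.6 and 11.4 RPKM. PU1_KI had 14.3, 14.9, 14.5, 15.4 and 13.1 RPKM and miR155_KO 5.84, 5.83, 5.25, 4.88 and 7.95 RPKM, where replicate 5 stood above its group. The groups did not overlap, with means of 10.9 ± 0.941 (SD, n = 4), 14.4 ± 0.848 (SD, n = 5) and 5.95 ± 1.19 (SD, n = 5). From WT, PU1_KI differed by 0.40 ± 0.10 (log2) and miR155_KO by -0.83 ± 0.10, or -0.94 without replicate 5 of miR155_KO.

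Pdk1 (ENSMUSG00000006494, NCBIM37 chromosome 2, 71711281 to 71741915, plus strand) encodes a kinase that blocks pyruvate dehydrogenase and so keeps pyruvate out of mitochondria. It had 9.38, 8.94, 9.82 and 10.9 RPKM in WT. The 5 PU1_KI libraries lay close together at 13.5, 13.7, 13.0, 13.7 and 13.8 RPKM, and the miR155_KO libraries had 5.97, 6.09, 6.71, 6.72 and 7.18 RPKM. All 3 groups were separate. Means were 9.77 ± 0.859 (SD, n = 4), 13.5 ± 0.327 (SD, n = 5) and 6.53 ± 0.5 (SD, n = 5) RPKM, and the log2 differences from WT 0.45 ± 0.06 and -0.54 ± 0.06.

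Bnip3 (ENSMUSG00000078566, NCBIM37 chromosome 7, 146082519 to 146101189, minus strand) encodes a receptor on mitochondria that leads to their removal by autophagy. WT libraries had 12.1, 10.1, 12.1 and 14.6 RPKM. PU1_KI libraries had 19.0, 21.4, 18.6, 20.4 and 19.1 RPKM, and miR155_KO libraries 6.04, 6.1, 6.44, 6.74 and 7.93 RPKM. The groups were separate, although WT spanned a wide range. With means of 12.2 ± 1.85 (SD, n = 4), 19.7 ± 1.17 (SD, n = 5) and 6.65 ± 0.769 (SD, n = 5) RPKM, PU1_KI differed from WT by 0.68 ± 0.09 on the log2 scale and miR155_KO by -0.82 ± 0.09.

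Ankrd37 (ENSMUSG00000050914, NCBIM37 chromosome 8, 47082256 to 47085221, minus strand) encodes a small ankyrin repeat protein and is known as a direct HIF target. Its WT values were 4.74, 4.4, 4.85 and 4.55 RPKM. PU1_KI values were 10.3, 9.12, 9.41, 10.1 and 7.77 RPKM and miR155_KO values 1.03, 1.78, 1.21, 1.5 and 1.69 RPKM. The 3 groups lay far apart compared with their own ranges. The mean was 4.64 ± 0.199 RPKM (SD, n = 4) in WT, 9.34 ± 1.0 RPKM (SD, n = 5) in PU1_KI and 1.44 ± 0.319 RPKM (SD, n = 5) in miR155_KO. The PU1_KI mean was 2.01 times that of WT, the largest such ratio among the 10 genes, and the WT mean 3.21 times that of miR155_KO. The log2 differences were 0.93 ± 0.10 for PU1_KI against WT, -1.42 ± 0.10 for miR155_KO against WT and -2.35 ± 0.09 for miR155_KO against PU1_KI.

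Egln3 (ENSMUSG00000035105, NCBIM37 chromosome 12, 55279968 to 55304847, minus strand) encodes a prolyl hydroxylase that marks HIF alpha subunits and is itself a HIF target. WT libraries had 1.3, 1.51, 1.86 and 2.06 RPKM. PU1_KI libraries had 2.12, 1.8, 2.21, 2.18 and 2.13 RPKM, and miR155_KO libraries 0.695, 0.673, 0.528, 0.456 and 0.772 RPKM. PU1_KI and WT overlapped through PU1_KI replicate 2, while miR155_KO was below both. The lowest of these values, in miR155_KO replicate 4, stands for 17.7 reads per kilobase at the recovered depth. Means were 1.68 ± 0.341 (SD, n = 4), 2.09 ± 0.165 (SD, n = 5) and 0.625 ± 0.129 (SD, n = 5) RPKM, with log2 differences from WT of 0.26 ± 0.10 and -0.95 ± 0.10. The former was 0.17 without WT replicate 1. Egln3 passed the level filter only through the genotypes where it was high.

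The last pair encode enzymes of protein folding and collagen maturation in the endoplasmic reticulum, a compartment that also grows in antibody-making cells. Ero1l (ENSMUSG00000021831, NCBIM37 chromosome 14, 45902879 to 45938237, minus strand), an oxidase that drives disulphide formation, had 17.3, 16.8, 17.7 and 20.6 RPKM in WT. Its values were 20.5, 21.1, 20.7, 22.4 and 21.2 RPKM in PU1_KI and 13.7, 13.4, 15.6, 15.5 and 15.2 RPKM in miR155_KO. PU1_KI overlapped WT through WT replicate 4 alone, and miR155_KO lay below both. Mean RPKM was 18.1 ± 1.7 (SD, n = 4), 21.2 ± 0.731 (SD, n = 5) and 14.7 ± 1.04 (SD, n = 5), with log2 differences from WT of 0.23 ± 0.06 and -0.29 ± 0.06, the smallest in miR155_KO among the 10 genes. The former was 0.14 with median-of-ratios scaling. P4ha1 (ENSMUSG00000019916, NCBIM37 chromosome 10, 58786044 to 58836052, plus strand), the catalytic subunit of collagen prolyl hydroxylase, had 9.56, 8.17, 9.21 and 9.96 RPKM in WT. It had 11.8, 12.3, 11.6, 11.2 and 11.6 RPKM in PU1_KI and 5.22, 5.03, 5.6, 5.69 and 5.95 RPKM in miR155_KO. For P4ha1 the groups did not overlap. Its means were 9.23 ± 0.767 (SD, n = 4), 11.7 ± 0.394 (SD, n = 5) and 5.5 ± 0.372 (SD, n = 5) RPKM, and its log2 differences from WT 0.33 ± 0.06 and -0.70 ± 0.06.

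**Figure D2:**
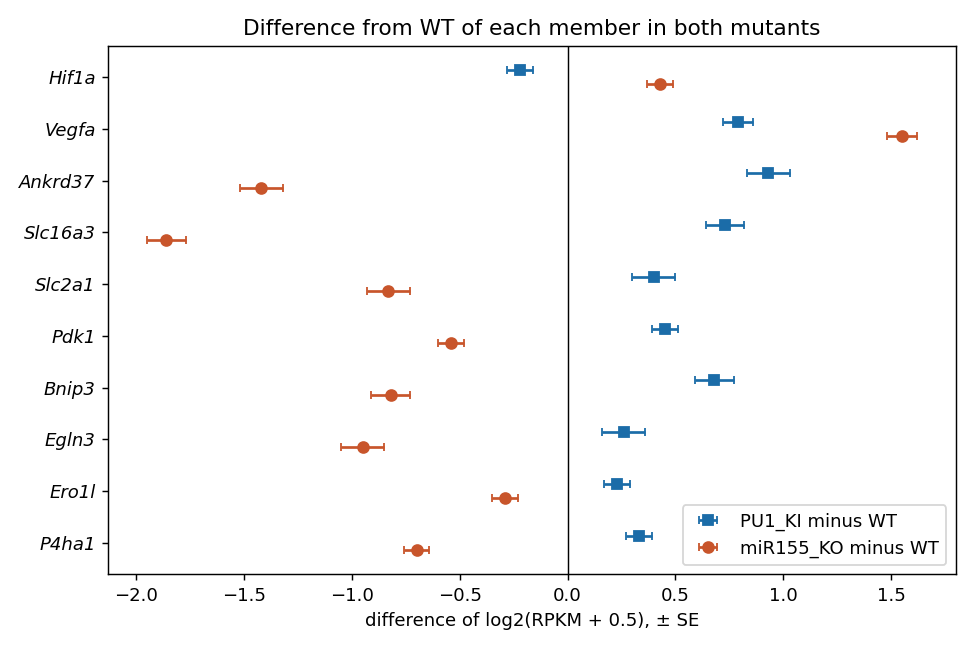
Difference of log2(RPKM + 0.5) from WT on the horizontal axis for each of the 10 genes, with PU1_KI as blue squares, miR155_KO as orange circles and bars for ± SE; both mutants share the 4 WT libraries. Hif1a alone lies left of 0 in PU1_KI (-0.22), Vegfa lies right of 0 in both, and the other 8 genes lie right of 0 in PU1_KI and left of 0 in miR155_KO.

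The median of the 10 log2 differences was 0.43 in PU1_KI against WT, beside 0.08 over all tested genes. For miR155_KO it was -0.76 against WT, beside -0.05, and -1.12 against PU1_KI, beside -0.13. Scaling the libraries to a common median of ratios took the last of these medians over all genes to -0.00394, and 627 values of the 10 genes under 21 other settings included 0 changes of sign. With that scaling Hif1a differed from WT by -0.30 in PU1_KI and by 0.47 in miR155_KO, and Vegfa by 0.71 and 1.60.

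RPKM is a value per length, so levels of the 10 genes are set side by side here, although no source used here gives the length used or how reads of near-identical copies were counted. In WT, Ero1l was highest, and its 4 libraries lay above every library of the other genes. Bnip3, Slc2a1, Hif1a, Pdk1, Vegfa and P4ha1 followed, with neighbours in that order overlapping in their ranges. Slc16a3 and Ankrd37 came next and overlapped with each other, and Egln3 was lowest. In PU1_KI, Ero1l and Bnip3 led with overlapping ranges, followed by Vegfa. In miR155_KO the order was headed by Vegfa, whose lowest library of 27.6 RPKM exceeded the highest of any other of these genes. Ero1l and Hif1a came next there and overlapped, with ranges of 13.4 to 15.6 and 12.9 to 14.8 RPKM.

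Ratios within a library, from which the scaling of that library cancels, set the genes against each other. Vegfa stood at 2.04 ± 0.153 times Ankrd37 in WT (SD, n = 4) and at 1.81 ± 0.213 times in PU1_KI (SD, n = 5), with ranges of 1.86 to 2.22 and 1.52 to 2.04 that overlapped. In miR155_KO the ratio was 20.7 ± 5.0 (SD, n = 5), from 15.5 to 27.4. The ratio of Vegfa to Slc16a3 behaved alike, at 1.63 ± 0.192 in WT, 1.69 ± 0.197 in PU1_KI and 23.4 ± 3.16 in miR155_KO. Vegfa thus kept pace with both genes between WT and PU1_KI and parted from them in miR155_KO. Bnip3 relative to Hif1a was 1.19 ± 0.156 in WT, 2.25 ± 0.141 in PU1_KI and 0.475 ± 0.046 in miR155_KO, and no ranges overlapped.

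**Figure D3:**
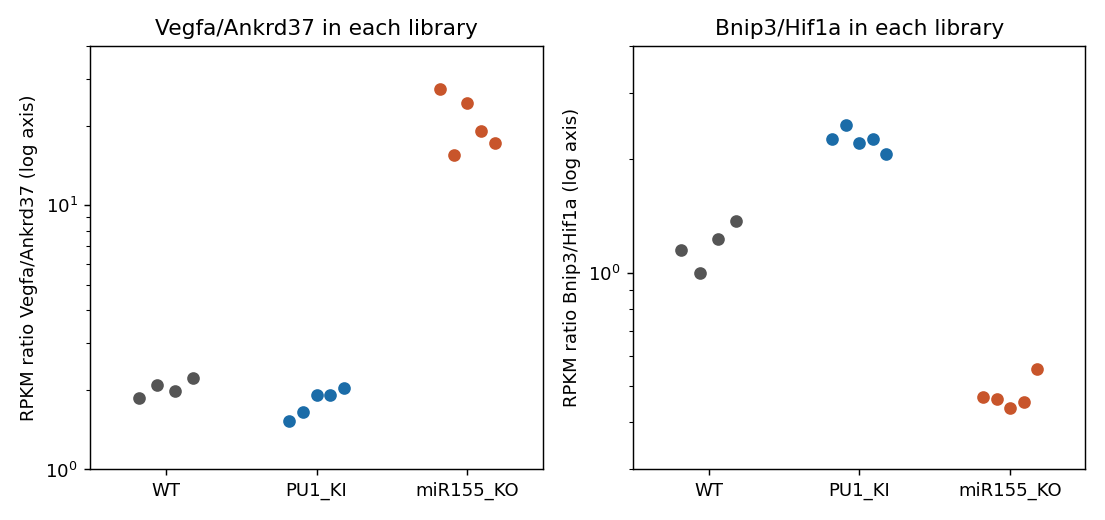
Ratio of RPKM within each library on a log axis, Vegfa over Ankrd37 on the left and Bnip3 over Hif1a on the right, with 1 point per library by genotype. Vegfa over Ankrd37 lies between 1.52 and 2.22 in WT and PU1_KI and between 15.5 and 27.4 in miR155_KO, while Bnip3 over Hif1a takes 3 separate ranges.

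Libraries of a genotype also differed together across these genes. WT replicate 4 was above its genotype mean for 9 of the 10 genes and highest for 8, with a median deviation of 0.13 on the log2 scale beside 0.05 over all tested genes. In miR155_KO, replicate 5 was above its mean for 10 of 10 genes and highest for 6, with 0.16 beside 0.08. WT replicate 2 was above its mean for 1 gene, with -0.10 beside -0.01. Ero1l in WT replicate 4 and Slc2a1 in miR155_KO replicate 5 are examples.

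The tested genes with the pattern nearest to 3 of the 10 were found by the root mean square difference of log2(RPKM + 0.5), each gene centred on its mean over the 14 libraries. Nearest to Hif1a was Kpna1, a nuclear import factor, at 0.0416, and Cecr2 was close at 0.0545, beside the own root mean square of Hif1a of 0.283. Kpna1 had mean RPKM of 8.78 in WT, 7.76 in PU1_KI and 12.2 in miR155_KO. Among the 3 genes nearest to Vegfa were the amino acid transporter gene Slc7a3 at 0.12 and the chemokine receptor gene Ccr7 at 0.123, the latter with 17.8, 32.5 and 58.2 RPKM, beside the own 0.625 of Vegfa. Ankrd37 had no neighbour as close: 1110032F04Rik at 0.219, Usp18 at 0.226 and Rtp4 at 0.267, beside its own 1.01. Usp18 and Rtp4 are known as interferon-induced genes, and Usp18 had 11.4, 20.8 and 3.7 RPKM.

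Genes outside the 10 were tested with limma, and a call means a Benjamini-Hochberg adjusted p under 0.05 over all tested genes. Over all of these, 23.7% were called higher and 4.03% lower in PU1_KI against WT, 27.2% and 35.3% in miR155_KO against WT, and 17.9% and 46.4% in miR155_KO against PU1_KI. With libraries scaled by median of ratios the first split turned from 2279 higher and 388 lower to 1677 and 1518, the second from 2616 and 3401 to 3278 and 3274, and the third from 1725 and 4467 to 3033 and 3013.

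Genes of the oxygen-sensing machinery had small differences in most cases. Of 16 genes for HIF subunits, hydroxylases, the Vhl ligase and coactivators, 14 were tested, of which Hif3a was not at 1 RPKM in every library. In PU1_KI against WT 4 rose, 0 fell and 10 did not pass, beside 23.7% higher and 4.03% lower over all tested genes. The median log2 difference was 0.11. In miR155_KO against WT 1 rose, the coactivator gene Crebbp (0.17, limma adjusted p = 0.0114), and 4 fell, with a median of -0.10. The shares over all tested genes were 27.2% and 35.3%. In miR155_KO against PU1_KI 1 was higher and 8 were lower, with a median of -0.19, beside 17.9% and 46.4% over all tested genes. Under median-of-ratios scaling these splits were 2 and 2, 3 and 5, and 2 and 4. Without WT replicate 1 the calls numbered 2 in PU1_KI against WT and 8 in miR155_KO against WT.

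Egln1, the main oxygen-sensing prolyl hydroxylase, had 8.96, 10.1, 10.3 and 11.1 RPKM in WT, 10.2, 11.3, 11.1, 11.8 and 10.8 in PU1_KI and 6.81, 6.94, 7.45, 6.89 and 7.68 in miR155_KO. The miR155_KO libraries lay below those of both other genotypes. It fell from 10.1 ± 0.899 to 7.16 ± 0.387 RPKM in miR155_KO, by a log2 difference of -0.47 ± 0.06 (limma adjusted p = 2.94e-06). Vhl, which recognises the hydroxylated subunit, also fell in miR155_KO, by -0.22 (limma adjusted p = 0.00401). Of its ligase partners, Rbx1 fell with -0.29 (0.000154) and Tceb1 with -0.25 (0.000689), or -0.16 with quantile normalization. The ligase partners Cul2 (limma adjusted p = 0.978) and Tceb2 (-0.19, 0.266) did not pass there. Rbx1 also fell in PU1_KI with median-of-ratios scaling (-0.18, limma adjusted p = 0.00316), though not in the values as deposited. In PU1_KI, Vhl rose from 5.48 to 6.41 RPKM, by 0.21 ± 0.06 (limma adjusted p = 0.0136), but did not pass with median-of-ratios scaling (0.13, adjusted p = 0.0573) or without WT replicate 1 (0.15, 0.0749). Arnt, the partner of Hif1a, rose from 10.5 to 11.9 RPKM in PU1_KI (0.18 ± 0.06, limma adjusted p = 0.0359) and did not pass in miR155_KO (0.09, 0.232). With median-of-ratios scaling the calls of Arnt changed places, at 0.09 (limma adjusted p = 0.111) in PU1_KI and 0.13 (0.0117) in miR155_KO. Leaving out WT replicate 1, 2 or 3 or PU1_KI replicate 2, 3 or 4 also ended its call in PU1_KI, with adjusted p from 0.051 to 0.0952 (limma). Hif3a, a further alpha subunit, had 0.68 RPKM in WT and 1.07 in PU1_KI (0.41). With quantile normalization this difference was 0.24 and was not called. Hif3a reached 1 RPKM only in PU1_KI replicates 2 to 5 and miR155_KO replicate 5. It was thus among the tested genes only through PU1_KI, where it was high, and it is counted among the calls above. Hif1an, the asparagine hydroxylase that blocks coactivator binding, had 6.1, 6.54 and 6.25 RPKM in the 3 genotypes and passed in no comparison. Epas1, the other main alpha subunit, lay between 0.0911 and 0.248 RPKM and was not tested.

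Other known HIF targets did not share 1 direction. Of 38 such genes 23 were tested, of which Ak4 and Gbe1 were not at 1 RPKM in every library. In PU1_KI against WT 15 rose and 1 fell, with a median log2 difference of 0.25, beside 23.7% higher and 4.03% lower over all tested genes. In miR155_KO against WT 8 rose, 7 fell and 8 did not pass, with a median of 0.07 that turned to -0.07 with quantile normalization. This split was near that over all tested genes, of which 27.2% were higher and 35.3% lower. In miR155_KO against PU1_KI 4 were higher and 12 lower, with a median of -0.18, while median-of-ratios scaling gave 8 higher and 10 lower. As deposited, 17.9% of all tested genes were higher there and 46.4% lower. Gbe1 was 1 of the 4 higher genes, with a miR155_KO mean of 1.1 RPKM beside a PU1_KI mean of 0.879 (0.21, limma adjusted p = 0.0186). Gbe1 passed the level filter through libraries of the other genotypes, among them miR155_KO, where its mean was highest. The 15 genes under the level filter included Car9, a classical marker of hypoxia, at 0.266 to 0.894 RPKM.

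Adm and Cxcr4 had the step-like order seen in Vegfa. Adm, a secreted peptide that widens vessels, had 3.15, 3.62, 3.53 and 3.84 RPKM in WT libraries, 5.05, 4.7, 5.91, 6.52 and 5.45 in PU1_KI and 12.8, 11.5, 13.0, 12.0 and 12.0 in miR155_KO. No groups overlapped, and it rose from 3.54 ± 0.287 to 12.3 ± 0.615 RPKM in miR155_KO (log2 difference 1.66 ± 0.08, limma adjusted p = 8.49e-13). Cxcr4, the receptor that guides B cells between zones of lymphoid tissue, had 9.64, 10.2, 9.65 and 11.1 RPKM in WT, 14.2, 13.7, 14.4, 15.7 and 15.1 in PU1_KI and 25.9, 26.1, 27.5, 27.0 and 29.2 in miR155_KO. It rose by 0.50 ± 0.06 in PU1_KI (limma adjusted p = 2.66e-06) and by 1.37 ± 0.06 in miR155_KO (2.92e-13), again with no overlap. Hmox1, which breaks down heme, rose in miR155_KO from 2.42 ± 0.317 to 5.3 ± 0.811 RPKM (0.99 ± 0.11, limma adjusted p = 2.04e-07).

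Ak4 and Fam162a followed the order of the 8 genes that were highest in PU1_KI. Ak4, a mitochondrial adenylate kinase, had 0.876, 0.779, 0.995 and 1.16 RPKM in WT, 1.96, 1.87, 1.65, 1.73 and 1.91 in PU1_KI and 0.162, 0.11, 0.134, 0.165 and 0.208 in miR155_KO. The genotypes were separate. Its log2 differences from WT were 0.68 ± 0.08 in PU1_KI and -1.14 ± 0.08 in miR155_KO, where its WT mean was 6.12 times that of miR155_KO. The latter difference was -2.04 with a pseudocount of 0.1 and -0.75 with 1. Ak4 reached 1 RPKM in 6 libraries, all of PU1_KI and WT replicate 4. It was thus among the tested genes only through the genotype where it was high, and it is counted among the calls above. Fam162a, a mitochondrial protein linked to cell death in hypoxia, had 34.3, 32.6, 37.4 and 45.0 RPKM in WT, 45.1, 44.8, 44.2, 44.4 and 44.3 in PU1_KI and 14.7, 17.1, 16.4, 15.8 and 19.1 in miR155_KO. PU1_KI overlapped WT through WT replicate 4, and miR155_KO lay below both. It fell by 1.14 ± 0.08 in miR155_KO (limma adjusted p = 4.85e-10), a WT mean 2.25 times that of miR155_KO. In PU1_KI it rose by 0.26 ± 0.08 (limma adjusted p = 0.0193). Median-of-ratios scaling ended that call (0.17, limma adjusted p = 0.0616), and it was also lost without WT replicate 1 (0.23, 0.0709) and without WT replicate 2 (0.20, 0.089). Tfrc, the receptor for iron uptake, was lower in both mutants. It fell from 17.2 ± 1.42 to 13.6 ± 0.74 RPKM in PU1_KI (-0.33 ± 0.08, limma adjusted p = 0.00535) and to 6.21 ± 0.935 RPKM in miR155_KO (-1.41 ± 0.08, adjusted p = 2.66e-11).

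**Figure D4:**
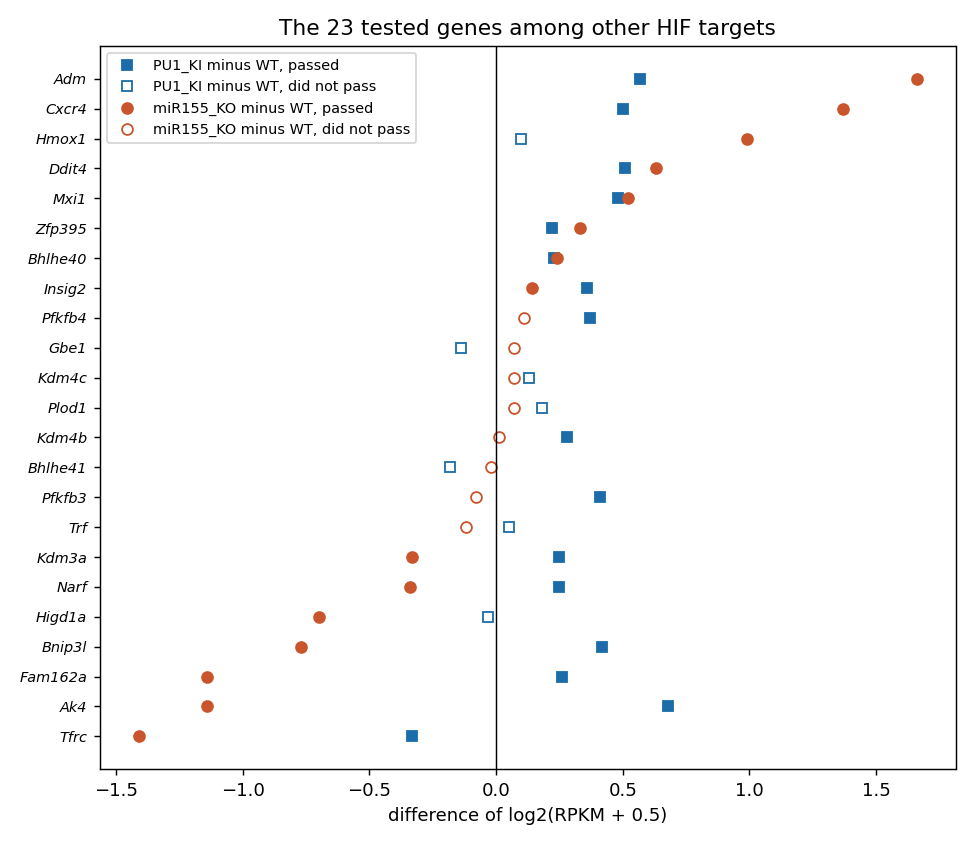
Difference of log2(RPKM + 0.5) from WT on the horizontal axis for the 23 tested genes among other HIF targets, ordered by miR155_KO, with PU1_KI as blue squares, miR155_KO as orange circles and filled symbols for an adjusted p under 0.05. In PU1_KI most genes lie right of 0 (15 called higher, 1 lower), while in miR155_KO they spread from Adm at 1.66 to Tfrc at -1.41 (with a pseudocount of 0.1 Ak4 lies below Tfrc, at -2.04 beside -1.46).

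Paralogs of the 10 genes differed in whether they had the pattern of their relatives. Of 19 genes 13 were tested, of which Pdk2 and Pgf were not at 1 RPKM in every library, and Egln1, Egln2 and Bnip3l also stand in the lists above. Both Pdk2 and Pgf are counted among the calls given next. The list also holds P4hb, which is the partner subunit of P4ha1 and no paralog, and its calls are counted too. P4hb rose in PU1_KI against WT (0.25, limma adjusted p = 0.015) and was lower in miR155_KO against PU1_KI (-0.30, 0.00115). It did not pass in miR155_KO against WT. In PU1_KI against WT 5 rose and 1 fell, in miR155_KO against WT 3 rose and 6 fell, and in miR155_KO against PU1_KI 3 were higher and 9 lower, with medians of 0.12, -0.23 and -0.33. Over all tested genes the shares higher and lower were 23.7% and 4.03%, 27.2% and 35.3%, and 17.9% and 46.4%. Bnip3l, the closest relative of Bnip3, had 17.6 ± 2.31 RPKM in WT (SD), while PU1_KI had 23.6 ± 0.724 and miR155_KO 10.1 ± 0.774 RPKM. It rose by 0.42 ± 0.07 in PU1_KI (limma adjusted p = 0.000295) and fell by 0.77 ± 0.07 in miR155_KO (4.1e-08). The glucose transporter gene Slc2a3 also rose in PU1_KI (0.39, limma adjusted p = 0.000405) and fell in miR155_KO (-0.36, 0.000244).

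The remaining transporter and kinase genes were less alike. Slc16a1, a lactate and pyruvate transporter gene, had 11.5 RPKM in WT and 11.1 in PU1_KI, which did not pass (limma adjusted p = 0.713), and fell to 7.79 RPKM in miR155_KO (-0.54, 1.12e-05). Pdk3 had 16.4 RPKM in WT and 16.7 in PU1_KI (limma adjusted p = 0.779) and fell to 11.4 RPKM in miR155_KO (-0.51, 1.51e-06). Pdk2 went the opposite way to Pdk1 at a low level, with 0.841 RPKM in WT. Its mean was 0.598 RPKM in PU1_KI (-0.28) and 1.33 RPKM in miR155_KO (0.45, and 0.26 with quantile normalization). Pdk2 reached 1 RPKM only in the miR155_KO libraries and WT replicate 3. It was thus among the tested genes only through the genotype where it was high. Its call in PU1_KI was lost without WT replicate 2 (-0.24) or 3 (-0.21). Ero1lb, the relative of Ero1l found in secretory cells, had 31.0 and 30.4 RPKM in WT and PU1_KI (limma adjusted p = 0.786) and fell to 24.1 RPKM in miR155_KO (-0.36, 0.00035).

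Among relatives of Vegfa, Pgf, the placental growth factor gene, had a mean of 0.284 RPKM in WT, while PU1_KI had 0.804 and miR155_KO 1.27 RPKM. Pgf reached 1 RPKM in 5 libraries, those of miR155_KO only, so it was among the tested genes only through the genotype where it was high. Its log2 differences from WT were 0.74 and 1.17, and with a pseudocount of 0.1 they were 1.25 and 1.85. Vegfb rose from 9.16 to 12.0 RPKM in PU1_KI (0.37, limma adjusted p = 0.000644) and had 9.99 RPKM in miR155_KO, which did not pass (0.13, 0.135) except with other scalings (0.17, 0.0298 with median of ratios) or without WT replicate 2 (0.19, 0.0252). Of 4 VEGF receptor genes only Nrp2 was tested. Nrp2, a coreceptor, rose from 3.82 ± 0.305 RPKM in WT to 6.25 ± 0.436 in PU1_KI (0.64 ± 0.07, limma adjusted p = 2.66e-06) and to 4.63 ± 0.559 in miR155_KO (0.24 ± 0.07, 0.00811). Flt1 and Kdr, the signalling receptors, reached at most 0.00922 and 0.0718 RPKM in any library, and Nrp1 at most 0.0414.

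Glycolytic enzymes, many of them HIF targets as well, were for the most part lower in miR155_KO, like Slc2a1 and Pdk1. Not all of those that fell there were also called higher in PU1_KI. Of 17 genes 15 were tested, and 10 rose and 0 fell in PU1_KI, 2 rose and 12 fell in miR155_KO against WT, and 1 was higher and 13 lower in miR155_KO against PU1_KI, with medians of 0.34, -0.73 and -1.18. The shares over all tested genes in these comparisons were 23.7% and 4.03%, 27.2% and 35.3%, and 17.9% and 46.4%. With median-of-ratios scaling or quantile normalization 7 rose in PU1_KI. The untested genes were Ldhb, at most 0.125 RPKM, and Gapdh, an abundant enzyme with many near-identical copies in the genome, which the table lists at 0.606 to 1.18 RPKM. Pgk1 fell from 95.3 ± 6.76 to 39.6 ± 3.21 RPKM in miR155_KO (-1.26 ± 0.07, limma adjusted p = 2.97e-11), while Eno2 rose (0.95, 2.32e-08). In PU1_KI, Pgk1 had 102.4 RPKM, which overlapped WT and did not pass (0.10, limma adjusted p = 0.328). Pgam1, Eno1, Pkm2 and Ldha also fell in miR155_KO and did not pass in PU1_KI against WT.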

How the data were processed

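Per the labels, RNA of LPS- and IL-4-treated splenic B cells was made into TruSeq mRNA libraries for 14 samples, grouped by title. The authors deposited 1 table of RPKM values, used as deposited. Per the submitters' processing notes, Trim Galore, TopHat and build NCBIM37 were involved; the read counter, annotation and strand setting were not stated in any source used here. In the table are 22295 rows, of which 63 repeat a gene and were kept.

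limma 3.58.1 in R 4.3.3 was fitted to log2(RPKM + 0.5) of the 9627 rows with at least 1 RPKM in at least 4 libraries, with 1 mean per genotype, moderation with an intensity trend, and two-sided p-values adjusted by Benjamini-Hochberg over all tested rows. It was tested on simulated data. Depth was recovered from RPKM steps (66.4% to 72.8% of low values came out as whole reads), with no count model. The 10 genes and all lists were chosen with earlier results of these data known. Named genes were the 10, up to 3 called genes per list, comparison and direction with the smallest adjusted p, and untested or further list genes chosen after their values were seen. A few genes that the rule names are not reported here. Alternatives were other pseudocounts, filters and scalings, a replicate block and each library left out. Other steps ran in Python 3.11.15 (numpy 2.4.6, pandas 2.3.3), and figures in matplotlib 3.10.9.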

Additional observations from a re-analysis of the deposited data

Results flagged for a closer look

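Within each genotype, the highest or lowest library was compared with the gap and range of the others for the 10 genes and the named genes of the lists. Of 117 groups 8 had a library standing far from the rest, where chance gives about 1 in 20, and among the 30 groups of the 10 genes there was 1. Egln3 in PU1_KI replicate 2 was 1.8 RPKM, while the other PU1_KI libraries lay between 2.12 and 2.21, and this library is the one that overlaps WT. In miR155_KO replicate 5, the coreceptor gene Nrp2 was 5.6 RPKM beside 4.22 to 4.53 in the others, and 3 glycolytic genes were also high: Aldoa at 274.3 RPKM beside 216.9 to 230.5, Gpi1 at 192.9 beside 172.1 to 177.1 and Pgam1 at 19.4 beside 14.2 to 15.0. Pfkfb3, a regulator of glycolytic flux, was 4.58 RPKM in miR155_KO replicate 3 beside 4.39 to 4.44. The glucose transporter gene Slc2a8 was 2.38 RPKM in miR155_KO replicate 2 beside 1.61 to 1.76, and Pfkm was 3.13 RPKM in WT replicate 4 beside 2.8 to 2.84.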

How the results depend on the processing

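No difference of the 10 genes changed sign under the 21 alternatives. Of their 627 values under alternatives 599 moved by less than 1 SD between replicates and 28 by more: 10 with quantile normalization, 6 with median-of-ratios scaling and 6 with each other pseudocount. For example, Slc16a3 in miR155_KO against WT was -2.14 with a pseudocount of 0.1 and -1.61 with 1. The number of the 10 whose groups did not overlap was 7 to 9 in PU1_KI against WT, and 9 or 10 in the others, 9 where a filter of 5 RPKM left Egln3 out.

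Calls among oxygen-sensing genes moved with scaling and with WT replicate 1. In miR155_KO against WT they numbered 5, but 8 with median-of-ratios scaling and 9 with quantile normalization, and in miR155_KO against PU1_KI 9, but 5 with quantile normalization. Quantile normalization also took Hif3a in miR155_KO against WT from 0.04 to -0.30 (limma adjusted p = 0.0177). Leaving out 1 library at a time gave 2 to 4 calls in PU1_KI against WT (2 without WT replicate 1), 5 to 8 in miR155_KO against WT (8 without WT replicate 1) and 8 to 11 in miR155_KO against PU1_KI. For other HIF targets these ranges were 14 to 17, 14 to 16 and 14 to 16, beside 16, 15 and 16, and without a filter on low values 22 and 24 were called in the comparisons of miR155_KO with WT and PU1_KI. In PU1_KI against WT quantile normalization split oxygen-sensing calls into 1 higher and 2 lower, and other targets into 13 and 3. In the list of paralogs with P4hb, in miR155_KO against PU1_KI, it gave 7 calls, 2 higher and 5 lower, beside 12. The cause of these shifts was not tested.

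With the replicate number as a block, oxygen-sensing calls stayed at 4, 5 and 9 and other targets at 16, 15 and 16. Deviations of same-numbered libraries of PU1_KI and WT correlated positively in every pair (0.0401 to 0.358). Pairs with miR155_KO had both signs (from -0.387 to 0.466). Whether the numbers stand for pairs was not settled by these values. RPKM without counts limits precision most for low values, such as Egln3 in miR155_KO with a mean of 0.625 RPKM. Some called genes had lower means still, such as Ak4 in miR155_KO (0.156 RPKM) and Pgf in WT (0.284 RPKM). Genes that did not reach 1 RPKM in at least 4 libraries were not judged one by one.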
